A study of Mus musculus with 8 samples.

Results

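Meg3, Rian, Mirg, Snhg14, Ube3a, Peg3 and Kcnq1ot1 are imprinted genes with transcripts known from brain. They were taken by symbol from the deposited gene lists, where each symbol names a single gene, so that the group is 7 of 32285 genes. Their level was measured in nuclei of mouse cerebral cortex as UMIs (unique molecular identifiers, each a counted RNA molecule) summed per library and cell class. All 7 had UMIs in each of the 8 libraries and each of the 10 classes, with a lowest sum of 4 UMIs for Mirg in the vascular cells of a library, and all passed the filter on low counts in every fit reported here.

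The study compared wild-type (WT) and Chd8 heterozygous (Chd8het, Chd8+/-) C57BL/6J mice at postnatal day 25, with 2 males and 2 females of each genotype. Chd8 encodes a chromatin remodeller linked to autism, and the question was which genes change in which cortical cell types when a copy is lost. Each library held the nuclei of 1 animal's cortex without its medial part, captured from frozen tissue with droplet chemistry that tags the 3' end of polyadenylated RNA. The WT and Chd8het animals came as 4 pairs matched for litter and sex. Both genotypes share strain, age and dissection, no Cre line or tissue restriction is named, and the sources used here do not describe the Chd8 allele. Replicate 1 of every sex and genotype was a single-indexed library and replicate 2 a dual-indexed one, so the replicate number cannot be told apart from the index type.

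Imprinted genes are transcribed mainly from the maternal or mainly from the paternal copy, under the control of methylation set in the germ line. Meg3, Rian and Mirg are maternally expressed long noncoding RNAs that lie in a row in the Dlk1-Dio3 cluster and host small nucleolar RNAs and microRNAs. Snhg14 is a paternally expressed noncoding RNA that hosts small nucleolar RNAs and runs antisense into Ube3a, the gene of an E3 ubiquitin ligase lost in Angelman syndrome, whose paternal copy it silences in neurons. Peg3 is a paternally expressed zinc-finger gene, and Kcnq1ot1 is a paternally expressed noncoding RNA antisense to the potassium channel gene Kcnq1 that silences its neighbours in cis.

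In the GENCODE M21 annotation of GRCm38 (mm10), 3 members lie on chromosome 12 and 4 on chromosome 7. Meg3 (ENSMUSG00000021268) spans chr12:109541001-109571726, Rian (ENSMUSG00000097451) chr12:109603940-109661716 and Mirg (ENSMUSG00000097391) chr12:109729764-109749460, all on the plus strand. The gap between Meg3 and Rian is 32.2 kb and that between Rian and Mirg 68.0 kb. The annotation places 13 small nucleolar RNA and 4 microRNA genes within Rian, and 15 microRNA genes within Mirg. Snhg14 (ENSMUSG00000100826) spans chr7:59307924-59975759 on the minus strand and contains 208 annotated small nucleolar RNA genes. It overlaps the 3' end of Ube3a (ENSMUSG00000025326, chr7:59228750-59311536, plus strand) by 3613 bases. Kcnq1ot1 (ENSMUSG00000101609) spans chr7:143203458-143296549 on the minus strand, inside Kcnq1. Peg3 (ENSMUSG00000002265, chr7:6703892-6730431, minus strand) overlaps no annotated gene. Whether reads were counted by strand is not given in the sources used here, so reads of Ube3a and Snhg14 in their overlap, and those of Kcnq1ot1 and Kcnq1, may not have been told apart.

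The start regions of the members differ in CpG content, the feature that imprinting marks act on, and the windows of Meg3, Rian, Kcnq1ot1, Ube3a and Peg3 are shown, whose RefSeq starts lie at most 12 bases from those of GENCODE. The sequences are RefSeq's for GRCm38.p6, written 5′ to 3′ on the strand of the gene, with CG dinucleotides in capitals. For the noncoding genes they run from 250 bases before the start to 50 after it: Meg3 at chr12:109540746-109541045 (plus), Rian at chr12:109603695-109603994 (plus) and Kcnq1ot1 at chr7:143296498-143296797 (minus). For the protein-coding genes only the 250 bases before the start are given: Ube3a at chr7:59228500-59228749 (plus) and Peg3 at chr7:6730420-6730669 (minus).
Meg3: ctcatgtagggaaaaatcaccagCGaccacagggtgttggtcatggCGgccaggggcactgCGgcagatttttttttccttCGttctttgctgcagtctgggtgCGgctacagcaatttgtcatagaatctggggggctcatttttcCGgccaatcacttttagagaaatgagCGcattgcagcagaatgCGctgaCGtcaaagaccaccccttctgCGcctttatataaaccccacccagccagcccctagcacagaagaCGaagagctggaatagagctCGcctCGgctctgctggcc
Rian: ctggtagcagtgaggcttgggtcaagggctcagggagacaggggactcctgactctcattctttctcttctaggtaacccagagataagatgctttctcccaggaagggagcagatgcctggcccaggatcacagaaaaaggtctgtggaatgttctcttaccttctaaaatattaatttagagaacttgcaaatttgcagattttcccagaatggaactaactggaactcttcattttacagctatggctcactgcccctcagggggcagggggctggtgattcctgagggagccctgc
Kcnq1ot1: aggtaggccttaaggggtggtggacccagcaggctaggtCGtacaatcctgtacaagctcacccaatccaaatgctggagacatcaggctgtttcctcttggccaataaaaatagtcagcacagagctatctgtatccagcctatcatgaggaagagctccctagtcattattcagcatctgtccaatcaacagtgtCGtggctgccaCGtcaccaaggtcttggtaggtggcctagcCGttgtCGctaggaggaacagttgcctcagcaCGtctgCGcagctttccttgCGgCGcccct
Ube3a: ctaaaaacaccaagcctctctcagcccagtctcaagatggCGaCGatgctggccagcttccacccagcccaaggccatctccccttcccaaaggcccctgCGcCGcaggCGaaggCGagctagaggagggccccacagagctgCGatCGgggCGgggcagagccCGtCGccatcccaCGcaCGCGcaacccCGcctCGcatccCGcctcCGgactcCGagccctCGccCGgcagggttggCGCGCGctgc
Peg3: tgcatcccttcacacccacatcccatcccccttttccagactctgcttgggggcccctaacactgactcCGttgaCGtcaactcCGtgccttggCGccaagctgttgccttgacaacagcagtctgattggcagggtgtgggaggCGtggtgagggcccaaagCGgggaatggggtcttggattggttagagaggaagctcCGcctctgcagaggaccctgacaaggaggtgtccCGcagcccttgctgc
The 300-base windows held 29 CG dinucleotides at Ube3a, 13 at Meg3, 13 at Peg3, 9 at Kcnq1ot1 and 0 at Rian, against a median of 7 over the 32851 RefSeq windows of that length. RefSeq starts Mirg and Snhg14 5217 and 474418 bases from their GENCODE starts, with 10 and 2 CG dinucleotides in their windows. It also has another Meg3 start, 4397 bases from the GENCODE start, with 1 CG dinucleotide in its window. TGCCGC, the core letters bound by the imprint-maintaining factor ZFP57, was searched on both strands. It occurred once in the Meg3 window shown and in none of the other 7 windows, while 11.6% of all windows held it.

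The libraries held 69.5 to 98.1 M UMIs each (M, 1000000). Of 97772 barcodes, 82168 had at least 500 genes and at most 5% mitochondrial UMIs, and 77890 were kept after 4278 predicted doublets (5.21%) were removed. Marker genes placed 66777 nuclei in broad types: 49819 were excitatory or inhibitory neurons and 15878 were glia (astrocytes, oligodendrocytes, their precursors called OPC, and microglia), the rest being vascular or striatal. Neurons that reached none of the finer neuron classes stayed in the sums over neurons. A further 11113 nuclei (14.27%) reached no broad type, and 5483 (7.04%) lay near a limit of the gate. The median UMIs per nucleus of a class's own markers ran from 7 (vascular cells) to 84 (CGE-derived interneurons). Astrocyte markers had a median of 0 in all neuron classes, excitatory markers 1 to 3 in glia, and the inhibitory list 11 in oligodendrocytes and 8 in OPC. Among the kept nuclei 715 of 77168 barcode sequences (0.93%) occurred in more than 1 library. Chd8 stood at 74.9 to 81.3 CPM (UMIs per 1000000 UMIs of the same nuclei) in the WT libraries and 76.0 to 89.6 CPM in the Chd8het libraries. Since the altered part of the gene is not described, these 3' counts do not check the genotype, which was taken from the labels.

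All 7 transcripts were higher in neurons than in glia. In neurons, Meg3, the first noncoding RNA of its cluster, stood at 7612 and 10052 CPM in the males 1 and 2 of the WT group and 7854 and 9351 CPM in its females 1 and 2. The Chd8het animals, listed the same way here and below, were at 7514, 9684, 7647 and 9838 CPM. In glia its values were 1352, 1847, 1630.2 and 2054 CPM (WT) and 1623, 2381, 1689 and 1870.4 CPM (Chd8het). The highest glial value was thus far below the lowest neuronal one, and replicate 2 was above replicate 1 in every sex and genotype. The fitted difference of Meg3, neurons minus glia, was 2.69 ± 0.06 (log2, SE; 16 sums from 8 libraries, adjusted p = 3.2e-15, edgeR quasi-likelihood test with library as a block and Benjamini-Hochberg adjustment). This threshold, an adjusted p under 0.05, was passed in the same direction by 38.3% of the 21505 genes tested, so the call alone sets the members little apart. By size, 2.9% of the genes tested had a larger rise in neurons than Meg3. Sums over a class cannot tell fewer nuclei with a transcript from less RNA per nucleus. Nuclei reduced to 1000 UMIs each were therefore also counted. Meg3 was found in a mean of 99.6% to 99.8% of nuclei in the neuron classes (8 libraries). In glia it was found in 80.6% of astrocytes, 72.7% of oligodendrocytes, 83.9% of OPC and 92.7% of microglia. Most nuclei of each glial class thus held Meg3 UMIs, and whether these came from the nucleus itself was not tested. The other members were found in smaller shares of every class.

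The other long RNAs of the chromosome 12 cluster had almost the same ratio. Rian, which hosts small nucleolar RNAs, stood at 464, 663, 474 and 617 CPM in WT neurons and 480.5, 676, 460.2 and 573 CPM in Chd8het neurons, and at 71.4 to 172 CPM in glia. Mirg, which hosts microRNAs, stood at 122, 145, 121 and 149.7 CPM in WT neurons and 115, 141, 109 and 124 CPM in Chd8het neurons, and at 24.7 to 46.9 CPM in glia. Neither gene had a glial library that reached a neuronal one, as for 12.9% of the genes tested. Their fitted differences were 2.79 ± 0.07 and 2.47 ± 0.07 (log2, SE).

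On chromosome 7, Snhg14 and Ube3a rose in neurons by the same measure. Snhg14 was at 1415, 1613, 1493 and 1565 CPM in WT neurons, at 1407, 1469.6, 1393 and 1479 CPM in Chd8het neurons, and at 219 to 384 CPM in glia, a difference of 2.78 ± 0.07 (log2, SE). Ube3a was at 1216, 1186, 1188 and 1241 CPM in WT neurons, at 1198, 982, 940.1 and 1230.1 CPM in Chd8het neurons, and at 215 to 257 CPM in glia, a difference of 2.71 ± 0.07 (log2, SE). The overlapping antisense pair thus had nearly equal neuron-to-glia differences, 2.78 and 2.71, but Meg3 and Rian on chromosome 12 had similar ones, 2.69 and 2.79. Reads in the overlap of Snhg14 and Ube3a may not have been told apart.

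Peg3 and Kcnq1ot1 had smaller differences. Peg3 was at 180.5, 199, 173 and 179 CPM in WT neurons and 171, 233, 169.5 and 189.9 CPM in Chd8het neurons, against 68.4, 73.1, 70.6 and 76.1 CPM in WT glia and 74.8, 106, 74.8 and 72.0 CPM in Chd8het glia. Its difference was 1.70 ± 0.05 (log2, SE). Kcnq1ot1 was at 675, 872, 737 and 931 CPM in WT neurons and 659, 873, 668 and 847 CPM in Chd8het neurons, against 364, 515, 432 and 537 CPM in WT glia and 332, 480.4, 358 and 474 CPM in Chd8het glia. Its difference was 1.26 ± 0.04 (log2, SE), with an adjusted p of 2.6e-13 (edgeR quasi-likelihood test, Benjamini-Hochberg), the highest adjusted p of the 7. The neuronal and glial libraries of Peg3 and Kcnq1ot1 did not overlap either, but their gap was narrower than for the other members. Genes with a larger rise were 9.7% of those tested for Peg3 and 14.9% for Kcnq1ot1.

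The fits scale libraries by the trimmed mean of M-values (TMM), which moved the neuron-minus-glia differences of the members up by 0.40 to 0.41 (log2) against plain CPM ratios. Against 1 glial or vascular class at a time, all 7 members were again called higher in neurons. Genes called in that direction made up 35.0% of those tested against astrocytes, 38.0% against oligodendrocytes, 31.1% against OPC, 38.7% against microglia and 31.8% against vascular cells. The difference closest to 0 was that of Kcnq1ot1 against OPC, at 0.61 (log2).

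Free RNA can put neuronal transcripts into glial droplets. The level of 12 neuron genes in glia was taken as a reference, in which free RNA, remaining doublets and expression of these genes by glia cannot be told apart. These genes were in glia at 12.8% (Rbfox3) to 31.1% (Snap25) of that in neurons, with a median of 17.7%. The median UMI count was 2514 per glial nucleus and 8645 per neuron. By the same ratio Meg3 was at 20.8% ± 2.28, Rian at 19.4% ± 3.01, Mirg at 24.1% ± 3.59, Snhg14 at 19.5% ± 3.20 and Ube3a at 20.5% ± 2.71 (SD, n = 8). All 5 lay within the range of the reference genes, so a level in glia as a whole above that of every reference gene was not detected for them. The reference genes above Mirg were Camk2a (28.2%) and Snap25, and the next was Celf4 (21.6%). Camk2a and Snap25 were also the highest reference genes in barcodes with fewer than 500 genes, at 228% and 107% of their neuronal level. All 5 lay above the reference median in each of the 8 libraries, by a mean of 1.80 (Rian) to 6.47 (Mirg) percentage points. The source of this excess was not tested. Peg3 at 41.2% ± 3.28 and Kcnq1ot1 at 55.5% ± 2.91 (SD, n = 8) lay above every reference gene in 8 of 8 libraries. In barcodes with fewer than 500 genes, present in 7 libraries at 6 to 1109 barcodes, the order was another. There Peg3 was at 115% ± 60.5 (SD, n = 7; 71.1% to 249.3%) and Kcnq1ot1 at 43.1% ± 16.9 of their level in neurons, beside a median of 53.4% for the reference genes (44.8% to 228%). Ube3a was at 29.4% ± 5.18 (SD, n = 7), also below every reference gene. Snhg14, Rian, Meg3 and Mirg were at 47.1%, 62.2%, 66.0% and 80.1%. What such barcodes hold was not tested, so no share of the glial level of Peg3 or Kcnq1ot1 was assigned to glia.

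**Figure D1:**
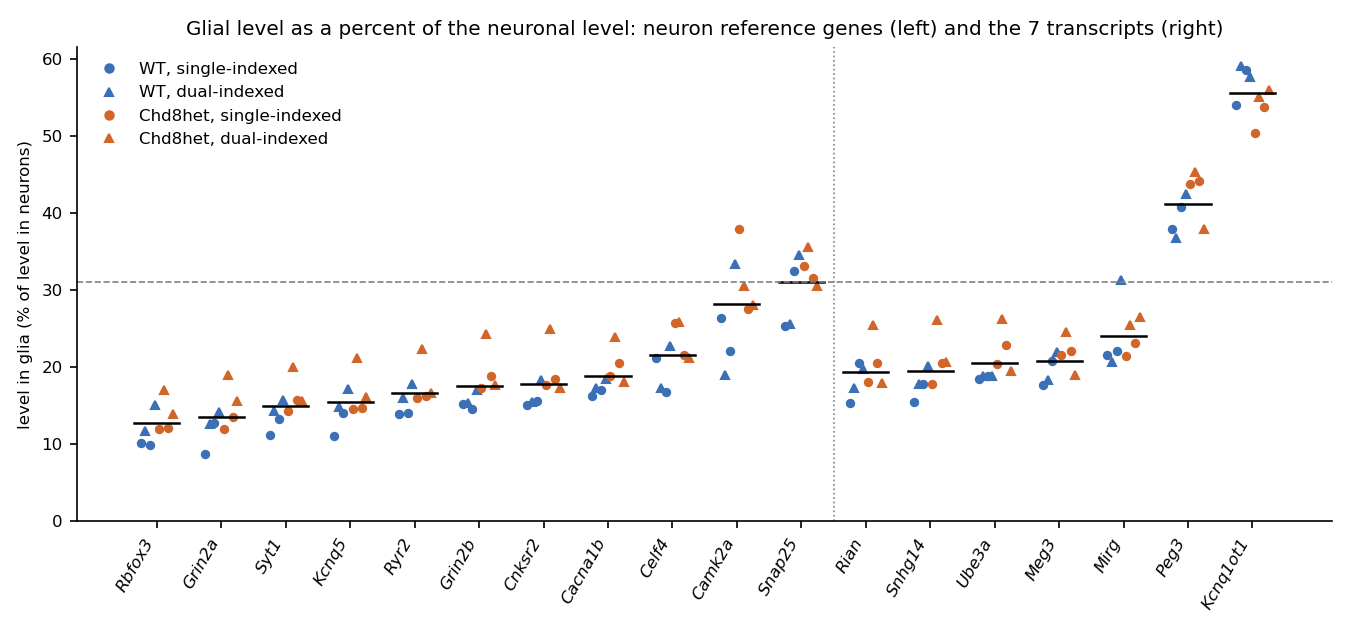
Level in glia as a percent of the level in neurons (y axis, %) for 11 of the 12 neuron reference genes (left of the dotted line) and the 7 transcripts (right), with 1 point per library and bars at the mean of 8 libraries. The means of Meg3, Rian, Mirg, Snhg14 and Ube3a lie within those of the reference genes, whose highest, 31.1%, is dashed, and all points of Peg3 and Kcnq1ot1 lie above it.

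The glial classes differed in which of these transcripts exceeded the reference genes. Kcnq1ot1 reached 82.1% ± 2.11 (SD, n = 8) of its neuronal level in OPC, at 572, 712, 613 and 784 CPM in WT and 522, 727, 541 and 673 CPM in Chd8het libraries. In microglia it was at 35.3% and exceeded all reference genes in 0 of 8 libraries. Peg3 was at 50.3% of its neuronal level in astrocytes and above the reference genes there in 8 of 8 libraries. In microglia Peg3 was above them in 3 of 8, and Mirg, at few UMIs, also in 3 of 8.

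The 10 classes were 3 of excitatory neurons (L2/3 IT and L4/5 IT, intratelencephalic neurons of upper and middle layers, and deep non-IT neurons), inhibitory interneurons from the medial (MGE) and caudal (CGE) ganglionic eminence, the 4 glial classes and vascular cells. The 3 excitatory classes held 12587, 10965 and 8646 of the 43318 excitatory neurons, in that order. The MGE-derived and CGE-derived classes held 3464 and 1996 of the 6501 inhibitory neurons, and the other neurons were in no class. Levels are compared between classes, not between genes, since 3' counts are not scaled per length. MGE-derived interneurons, the class of the Pvalb and Sst types, had the highest mean CPM of all 7 transcripts, and this held under DESeq2 size factors, graph clusters in place of the marker gate, stricter filters on nuclei or markers, with predicted doublets kept and with the members left out of library sizes. The share of all genes that are highest in MGE-derived interneurons was not counted, so this alone does not set the members apart. Meg3 averaged 13122 ± 1477 CPM there (SD, n = 8), 10837 ± 999 CPM in CGE-derived interneurons, 8405 ± 1284 CPM in deep non-IT neurons, 8280.5 ± 889 CPM in L2/3 IT neurons and 7847 ± 1077 CPM in L4/5 IT neurons. In UMIs, that was 119 per MGE-derived nucleus and 89.1 per L2/3 IT nucleus, with 4.85 per astrocyte. Outside neurons Meg3 averaged 2941 CPM in microglia, 2667 in vascular cells, 1966 in OPC, 1752 in astrocytes and 1399 in oligodendrocytes. Neighbours in this order were compared within libraries, and all Meg3 neighbours differed (adjusted p = 0.0141 each, exact sign-flip permutation test, n = 8) except deep non-IT and L2/3 IT neurons (adjusted p = 0.648) and microglia and vascular cells (adjusted p = 0.181).

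**Figure D2:**
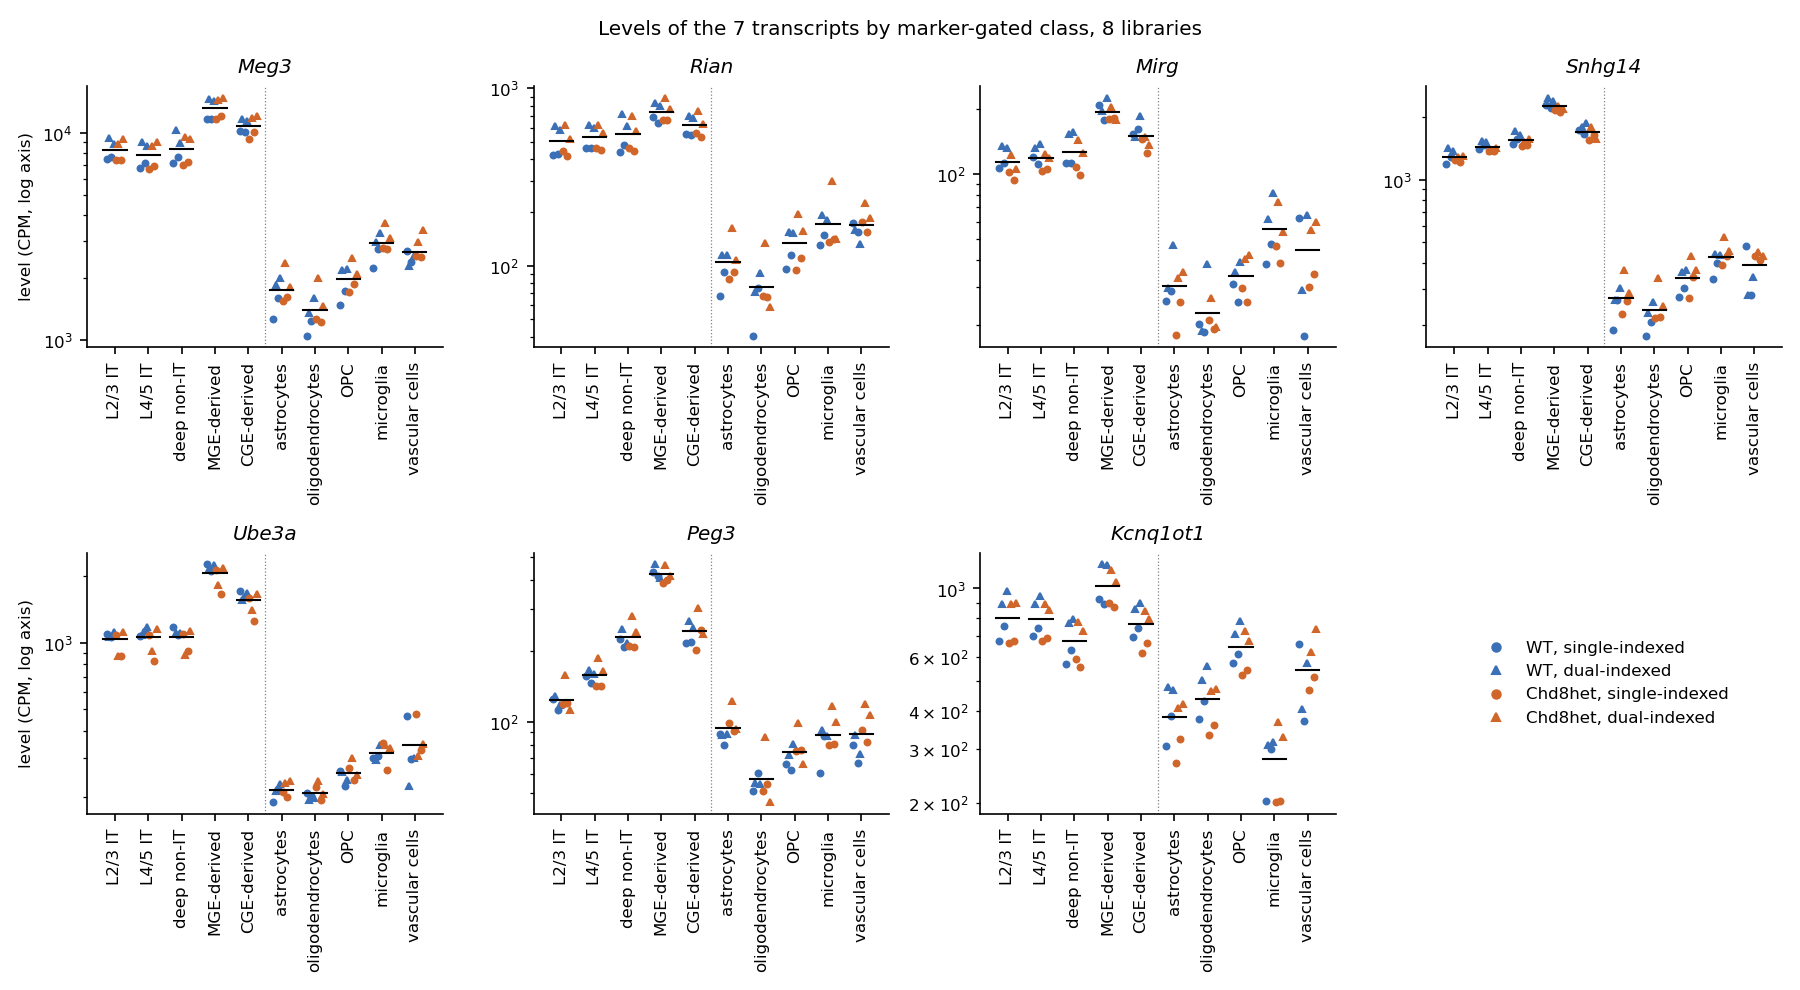
Level of each transcript (y axis, CPM, log axis) in 5 neuron classes (left of the dotted line) and 5 glial and vascular classes, with 1 point per library and bars at the mean of 8 libraries. MGE-derived interneurons are highest in all 7 panels, the step from neurons to glia is large for Meg3, Rian, Mirg, Snhg14 and Ube3a, and Kcnq1ot1 in OPC lies next to deep non-IT neurons.

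For all 7 transcripts, 41 of 63 neighbouring pairs of classes differed at an adjusted p under 0.05 (exact sign-flip permutation test over 8 libraries, two-sided, Benjamini-Hochberg over the 63 pairs, smallest possible p 0.0078125). The highest p so called was 0.0234, which was reached by 22.9% of the 89217 steps of the 9913 genes with UMIs in every library and class, each in its own order. Among the 6026 of these genes with at least 4 UMIs in every sum, the lowest sum of a member, the share was 27.6%. Adjusted over all 89217 steps, 35 of the 63 passed, against 15.9% of all. Rian and Mirg, unlike Meg3, had L4/5 IT above L2/3 IT neurons, in the order MGE-derived, CGE-derived, deep non-IT, L4/5 IT and L2/3 IT, with 739.7 and 194 CPM in MGE-derived and 507 and 114 CPM in L2/3 IT neurons. The step from deep non-IT to L4/5 IT neurons was called for neither gene, nor was that of Mirg from L4/5 IT to L2/3 IT neurons. All 4 steps between neuron classes were called for Snhg14, as for 4.14% of genes, from 2248 ± 119.8 CPM in MGE-derived through 1697 in CGE-derived, 1545 in deep non-IT and 1426 in L4/5 IT to 1285 ± 75.9 CPM in L2/3 IT neurons (SD, n = 8). Ube3a, in contrast, was level across the 3 excitatory classes at 1035 to 1063 CPM, with no called difference between neighbours, and rose to 1559 ± 157 CPM in CGE-derived and 2069.9 ± 214 CPM in MGE-derived interneurons.

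Peg3 had the largest ratio between neuron classes of the 7. It stood at 429, 464, 416 and 407 CPM in WT and 386, 459, 399 and 414 CPM in Chd8het MGE-derived interneurons, and at 124, 129, 112 and 117 CPM (WT) and 119, 158, 119 and 112 CPM (Chd8het) in L2/3 IT neurons. No library overlapped between those classes, where MGE-derived lay above L2/3 IT neurons in every library for 16.8% of genes. At least 3 of the 4 steps were called for 17.2% of genes, and for Peg3 all were except that from CGE-derived (242 CPM) to deep non-IT neurons (229 CPM; adjusted p = 0.147, exact sign-flip permutation test, n = 8). Below the neurons, astrocytes had 93.9 ± 12.6 CPM and oligodendrocytes 57.1 ± 12.4 CPM of Peg3 (SD, n = 8). Kcnq1ot1 had another order: L2/3 IT (804 CPM) and L4/5 IT (798 CPM) neurons came next after MGE-derived interneurons (1022 CPM), and deep non-IT neurons (676 CPM) lay close above OPC (643 CPM; adjusted p = 0.0252, exact sign-flip permutation test, higher in 7 of 8 libraries). Microglia, at 279 CPM, were lowest for Kcnq1ot1 but highest or second among non-neuronal classes for Meg3, Rian, Mirg, Snhg14 and Ube3a. Among these classes the median of the neuron reference genes was also highest in microglia, at 25.2% of their neuronal level. Of the 63 neighbouring pairs, 9 had the other direction with graph clusters and 8 with DESeq2 size factors, none of them called above. The largest such turn was that of Snhg14 from microglia to vascular cells, from 0.15 to -0.61 (log2) with graph clusters. With predicted doublets kept the called step of Snhg14 from astrocytes to oligodendrocytes also turned, to -0.03 (log2).

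Excitatory and inhibitory neurons were compared as wholes in the same libraries. All 7 transcripts were lower in excitatory neurons, a direction called for 31.4% of the 20149 genes tested (edgeR quasi-likelihood test with library as a block, Benjamini-Hochberg). The largest difference, excitatory minus inhibitory, was that of Peg3 at -0.94 ± 0.04 (log2, SE), followed by Ube3a at -0.66 ± 0.03. Meg3, Mirg and Snhg14 differed by -0.39, -0.38 and -0.36 and Rian by -0.21 (log2). Kcnq1ot1 differed by -0.10 ± 0.03 (log2, SE; adjusted p = 0.0102, edgeR) and was no longer called without the filter on low counts (-0.07, adjusted p = 0.122, edgeR). TMM scaling moved these differences by 0.17 (log2) towards 0 against plain CPM. Within inhibitory neurons all 7 were higher in MGE-derived than in CGE-derived cells, by 0.24 to 0.79 (log2), where 22.0% of 14134 genes were called in that direction.

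The likeness of these profiles was measured as Pearson's r of mean log2 CPM over the 10 classes, among 11028 genes with at least 20 CPM in a class. The classes share libraries and the neuron-to-glia step, so r is a description. For Meg3 the most similar genes were Mirg (r = 0.997), Rian (0.996) and Snhg14 (0.995), followed by Ube3a (0.993). For Rian they were Meg3, B830012L14Rik (0.994) and Snhg14 (0.994), and for Mirg they were Meg3, Snhg11 (0.995) and Rian (0.993). Snhg14 was most like Clvs1 (0.996), Meg3 and Rian, and Ube3a was most like Snhg14 (0.993), Meg3 and Gm11817 (0.993). Peg3 was nearest to Grip2 (0.978) and 1700008O03Rik (0.973), and its r with the other members was 0.71 (Kcnq1ot1) to 0.93 (Ube3a). Kcnq1ot1 was nearest to Kcnq1 (0.986), the gene it lies inside and whose reads may not have been told apart from its own. D10Wsu102e (0.968) and Gm48383 (0.963) came next, and its r to the other members was 0.71 to 0.81.

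Co-variation was also measured between nuclei of a class within a library, where the neuron-to-glia step plays no part. A class can still hold several cell types, and the part of their mix in r was not tested. Each nucleus was thinned to 4000 UMIs, Pearson's r was taken in every library, and the mean over the 5 neuron classes is given with its SD over 8 libraries, with no p since nuclei of a library are not independent. Thinning left out 564 of 12587 L2/3 IT nuclei and 354 of 1996 CGE-derived nuclei. Within the chromosome 12 cluster, r was 0.21 ± 0.03 for Meg3 and Rian, 0.12 ± 0.03 for Meg3 and Mirg and 0.09 ± 0.03 for Rian and Mirg. For Meg3 and Rian the class means ran from 0.11 in MGE-derived to 0.30 in CGE-derived interneurons, and in L2/3 IT neurons the 8 libraries ran from 0.11 to 0.24. In 4 of the 5 classes no gene of the 6253 to 6581 compared had a higher r with Rian than Meg3 had, and Sox5 exceeded it in MGE-derived interneurons. Meg3 was also first for Mirg in 4 classes, with Rian first and Meg3 second in MGE-derived interneurons. The reverse did not hold, since Rian ranked between 8 and 32 among the partners of Meg3, whose first partners were Snhg11, Lrrtm4, Tshz2, Malat1 and Sdk1 in the 5 classes. Tshz2, first in deep non-IT neurons, is also a marker gene that placed nuclei in that class.

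Snhg14 and Ube3a had r = 0.08 ± 0.04 (SD over 8 libraries), beside r = 0.12 for Snhg14 and Meg3, on another chromosome, and 0.09 for Snhg14 and Kcnq1ot1. In MGE-derived interneurons Snhg14 was the first partner of Kcnq1ot1, at r = 0.19. The top 3 partners of Ube3a in each of the 3 excitatory classes were Malat1, Gm20642 and Nrg3os, at r of 0.20 to 0.44, and the mean r of Ube3a with Meg3, Rian, Mirg, Peg3 and Kcnq1ot1 was between -0.02 and 0.05. The classes differed behind these means, since Meg3 and Ube3a had r = 0.12 in L2/3 IT neurons (above 0 in 8 of 8 libraries) and -0.02 in MGE-derived interneurons (above 0 in 3 of 8). Peg3 had r = 0.12 with Meg3, its first partner in deep non-IT and second in L2/3 IT and L4/5 IT neurons, but Meg3 ranked 20 for it in CGE-derived and 105 in MGE-derived interneurons (r = 0.10 and 0.06). Kcnq1ot1 had a mean r near 0 with Meg3 (0.02), Rian (0.02), Mirg (-0.02), Ube3a (-0.01) and Peg3 (-0.01). With Meg3 this mean covered -0.05 in L2/3 IT neurons, above 0 in 0 of 8 libraries, and 0.08 in deep non-IT neurons, above 0 in 8 of 8. These values depend on depth: at 6000 UMIs the Meg3 and Rian mean was 0.25 and without thinning 0.32, and the Snhg14 and Ube3a mean was 0.13 and 0.20. Snhg14 and Meg3 had 0.14 and 0.23 at these depths, and Snhg14 and Kcnq1ot1 0.11 and 0.22, so the order of these 3 pairs changed with depth. Without thinning Meg3 and Ube3a in MGE-derived interneurons turned to r = 0.27 (above 0 in 8 of 8 libraries), and Meg3 and Kcnq1ot1 in L2/3 IT neurons were at -0.01 (above 0 in 4 of 8).

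**Figure D3:**
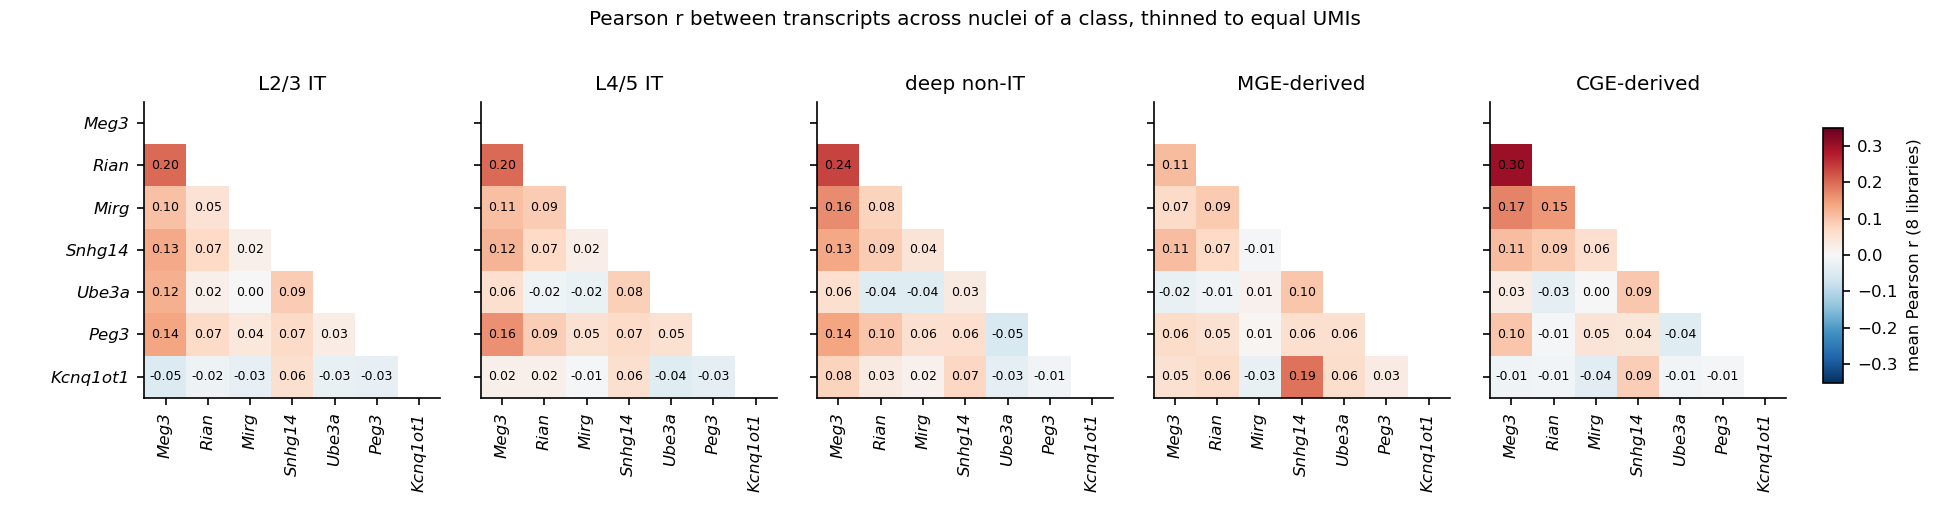
Pearson's r between each pair of transcripts across nuclei of 1 class, thinned to 4000 UMIs and averaged over 8 libraries, for the 5 neuron classes (panels, colour scale from -0.35 to 0.35). The Meg3 and Rian cell is 0.20 to 0.30 in every class but MGE-derived interneurons (0.11), and the Snhg14 and Kcnq1ot1 cell is highest in MGE-derived interneurons (0.19).

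Between genotypes, none of the 7 transcripts was called in any class. Over 10 classes, 0 of 70 member tests and 0 of 125844 tests of all genes (0.0%) had an adjusted p under 0.05 (edgeR quasi-likelihood test with sex as covariate, Benjamini-Hochberg within a class). At an unadjusted p under 0.05 there was 1 of 70 member tests (Mirg in CGE-derived interneurons) against 2930 of all (2.33%), and the DESeq2 Wald test gave 0 of 70 and 4 adjusted calls among all genes. In data simulated from these counts with 200 genes changed by 1 log2 unit, the same test found 94 of 200 in L2/3 IT neurons and 119 of 200 in OPC. The changed genes were drawn at random from all that passed the filter, and among them changes of that size could be missed. Genes at the levels of the members were not simulated apart, so these shares do not give what could be missed for the members.

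The pairs gave more detail. Animals of the same sex and number were taken as the matched pairs, although no label says that a number marks a litter. They deviated together, as did animals of the other sex with the same number, and a fit with the 4 pairs as a block was also made. With this replicate block, 18 of 70 member tests (25.7%) had an unadjusted p under 0.05, against 8119 of 130630 (6.22%) for all genes, and still none was called, while 20 calls among all genes (0.0153%) were. The count was 15 of 70 (21.4%, against 5.74% for all genes) with index type as covariate in place of the pairs, 7 of 70 (10.0%, against 1.67%) with DESeq2 and pairs, and 1 of 70 (1.4%, against 2.33%) with neither. The smallest adjusted p of a member with pairs was 0.467 (Ube3a, edgeR). The 18 tests with the replicate block were 5 of Mirg, 5 of Ube3a, 4 of Snhg14 and 4 of Kcnq1ot1, with 0 of Meg3, Rian and Peg3. Tests of a gene in several classes use the same libraries, so the 70 tests are not independent and these shares carry no p.

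Mirg, Snhg14 and Ube3a, 3 of the 7, were lower in the Chd8het neurons of 4 of 4 pairs, as were 5.17% of the genes tested. The log2 differences of Mirg in neurons, Chd8het minus WT, were -0.09 (male pair 1), -0.04 (male pair 2), -0.15 (female pair 1) and -0.27 (female pair 2). For Ube3a they were -0.02, -0.27, -0.34 and -0.01, and for Snhg14 -0.01, -0.13, -0.10 and -0.08, in the same order. For Ube3a, 2 pairs were thus near 0, and Chd8het male 2 and Chd8het female 1, at 982 and 940.1 CPM, lay below the other 6 libraries, at 1186 to 1241 CPM. The fitted differences were -0.17 ± 0.11 for Mirg, -0.18 ± 0.10 for Ube3a and -0.11 ± 0.06 for Snhg14 (log2, SE; adjusted p = 1.0 each, edgeR quasi-likelihood test), and with pairs -0.17 ± 0.06, -0.19 ± 0.07 and -0.11 ± 0.04 (adjusted p = 0.694, 0.739 and 0.770, edgeR). Leaving out 1 library at a time gave -0.23 to -0.09 for Mirg, lowest in size without WT female 2, and -0.26 to -0.10 for Ube3a, lowest in size without Chd8het female 1. The libraries of the genotypes overlapped in neurons for all 7 transcripts, and in glia as well, while every WT library lay above every Chd8het one for 0.387% of genes in neurons and 0.737% in glia.

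Class by class, Mirg was lower in Chd8het by 0.16 to 0.27 (log2) in the 5 neuron classes and in 4 of 4 pairs in 4 of them, against 4.94% of gene tests in neuron classes. Its CGE-derived values were 154, 149, 161 and 186 CPM in WT and 145, 148, 125 and 136 CPM in Chd8het libraries, and these did not overlap. The other such case was Peg3 in astrocytes, with 89.0, 88.0, 80.0 and 89.0 CPM in WT and 90.9 to 122 CPM in Chd8het libraries. These 2 of 70 cases stand beside 2.04% of all gene tests in the 10 classes, where WT lay above for 0.656% of genes in CGE-derived interneurons and Chd8het above for 1.4% in astrocytes. Ube3a and Snhg14 were lower in all 5 neuron classes, by 0.15 to 0.20 and 0.08 to 0.14 (log2), and higher in all 5 glial and vascular classes. Kcnq1ot1 was lower by 0.10 to 0.17 (log2) in neuron classes, and in neurons as a whole leaving out 1 library at a time gave -0.19 to -0.02. The tally of neuron classes lower in 4 of 4 pairs was 4 for Kcnq1ot1, as for Mirg, 3 each for Snhg14 and Ube3a and 0 for Meg3, Rian and Peg3. In glia it was lower in 4 of 4 pairs, as were 5.76% of genes, with log2 differences of -0.13, -0.10, -0.27 and -0.18, and its fitted difference there was -0.18 ± 0.17 (log2, SE; adjusted p = 0.999, edgeR) and -0.18 ± 0.07 with pairs (adjusted p = 0.773, edgeR). Without pairs it was -0.31 when Chd8het male 2 was left out and -0.08 when WT male 2 or Chd8het female 1 was. Meg3 and Rian were within 0.08 (log2) of 0 in every neuron class. None of these values passed the threshold.

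**Figure D4:**
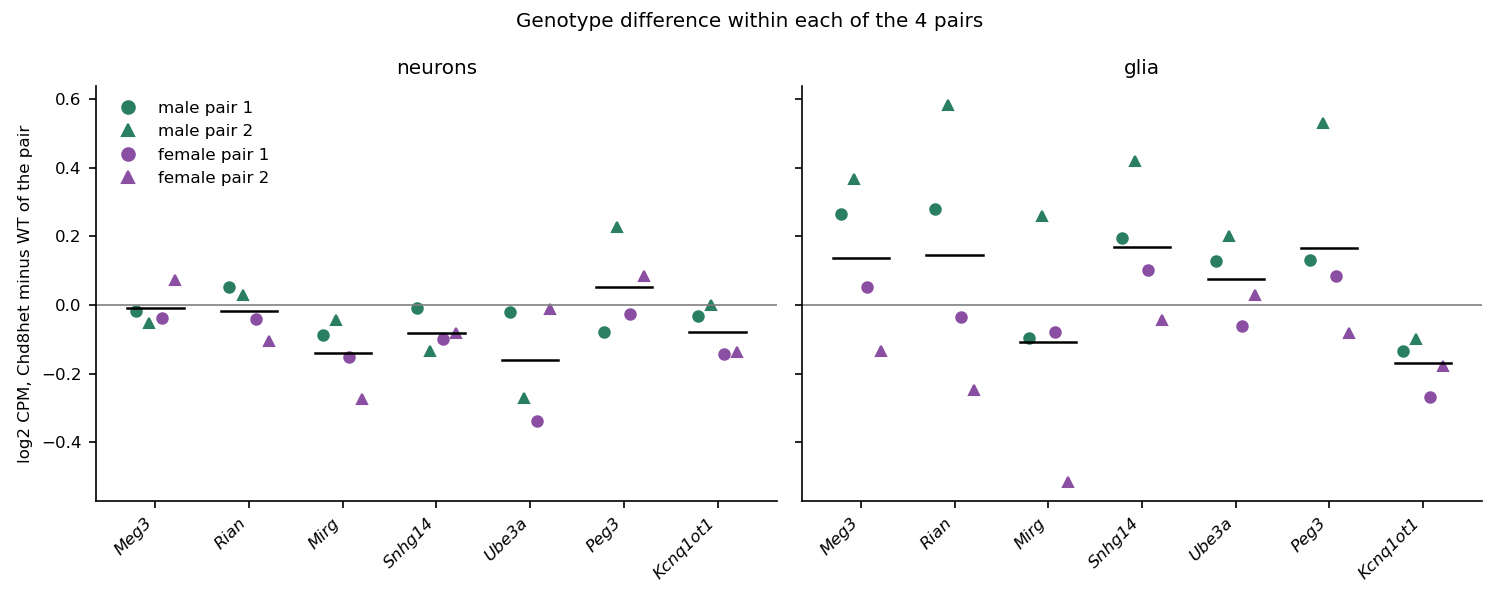
Difference between genotypes within each of the 4 pairs (y axis, log2 CPM of Chd8het minus WT) for the 7 transcripts in neurons (left) and glia (right), with bars at the mean of the pairs. In neurons all 4 points of Mirg, Snhg14 and Ube3a lie below 0, and in glia all 4 points of Kcnq1ot1 do.

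In glia, Meg3, Rian, Snhg14, Ube3a and Peg3 had fitted differences of 0.12, 0.15, 0.16, 0.06 and 0.16 (log2; adjusted p = 0.999 each, edgeR quasi-likelihood test). The pairs did not share a direction: Rian differed by 0.28 and 0.58 in male pairs 1 and 2 and by -0.04 and -0.25 in female pairs 1 and 2. Chd8het male 2 had the highest glial values of Meg3 (2381 CPM), Rian (172 CPM), Snhg14 (384 CPM), Ube3a (257 CPM) and Peg3 (106 CPM). In that library the neuron reference genes were also at a median of 24.1% of their neuronal level in glia, against 14.6% to 18.7% in the other 7, and 11 of the 12 were highest there. In the other pairs the reference median was also higher in the Chd8het library in male pair 1 (17.3% against 14.6%) and female pair 1 (18.7% against 15.1%), and it was 17.5% against 17.7% in female pair 2. Over the 4 pairs, the glial differences of Meg3, Snhg14 and Peg3 had the signs of the reference median. Those of Rian, Mirg, Ube3a and Kcnq1ot1 did not. The part of free RNA in these glial differences was not tested. Without Chd8het male 2 the differences of Meg3, Rian and Snhg14 in glia were -0.04, -0.15 and -0.01 (log2), and without WT male 1, the library lowest in most reference genes (8 of 12), they were -0.0040, -0.04 and 0.05. Without Chd8het male 2 the differences of Peg3 and Ube3a were 0.015 and 0.025, and the ranges over the 8 libraries left out in turn were 0.015 to 0.23 and 0.025 to 0.12. A term for the genotype difference in neurons minus that in glia was called for none of the 21505 genes (0.0%, 934 at an unadjusted p under 0.05; edgeR quasi-likelihood test with library as a block), and its values for the members ran from -0.27 (Snhg14) to 0.07 (Kcnq1ot1) on the log2 scale. The Snhg14 value was -0.16 without Chd8het male 2, and that of Kcnq1ot1 was 0.015 without Chd8het male 1. With pairs, 2 genes were called and no member, with a smallest adjusted p of 0.564 for Snhg14 (edgeR).

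Index type separated the libraries for some members and not for others. In neurons, Meg3 stood at 7514 to 7854 CPM in the 4 single-indexed and 9351 to 10052 CPM in the 4 dual-indexed libraries, and Rian at 460.2 to 480.5 and 573 to 676 CPM. Kcnq1ot1 stood at 659 to 737 and 847 to 931 CPM, and Mirg at 109 to 122 and 124 to 149.7 CPM. For these 4 no single-indexed library reached a dual-indexed one, in neurons or in glia, as for 16% of genes in neurons and 9.88% in glia. Snhg14 (1393 to 1493 against 1469.6 to 1613 CPM), Ube3a (940.1 to 1216 against 982 to 1241 CPM) and Peg3 (169.5 to 180.5 against 179 to 233 CPM) overlapped in neurons.

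The test over all nuclei called 5 of the 7 members. Dual minus single was 0.33 ± 0.04 for Meg3, 0.42 ± 0.05 for Rian, 0.36 ± 0.04 for Kcnq1ot1 and 0.25 ± 0.05 for Mirg (log2, SE; adjusted p = 0.0011, 0.00082, 0.00078 and 0.0080, edgeR quasi-likelihood test with sex and genotype as covariates), where 16.1% of 21917 genes were called in that direction. The test takes libraries as independent, although index type differs only between pairs, so its errors and p-values may be too small. Peg3 differed by 0.19 ± 0.06 (adjusted p = 0.0419, edgeR), a call that was lost with DESeq2 (0.0529), with the stricter nucleus filter (0.0543), and without WT male 1, WT male 2, WT female 2, Chd8het male 1, Chd8het male 2 or Chd8het female 1 (adjusted p = 0.0631 to 0.159, edgeR). Snhg14 and Ube3a differed by 0.10 and 0.01 (adjusted p = 0.127 and 0.933, edgeR). In glia alone Meg3, Rian, Mirg, Snhg14 and Kcnq1ot1 were called, against 9.54% of genes. Across the 10 classes Kcnq1ot1 was called higher in dual-indexed libraries in 9, Meg3 and Rian in 8 each, Mirg in 5, Snhg14 and Peg3 in 2 each and Ube3a in 0. Over the same classes 8.38% of gene tests were called in that direction, from 0.6% in vascular cells to 13.4% in L2/3 IT neurons. The genotypes are balanced over index type, and within single-indexed libraries alone the Chd8het mean of Meg3 in neurons was 153 CPM below the WT mean, against 59.4 CPM above it within dual-indexed ones.

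**Figure D5:**
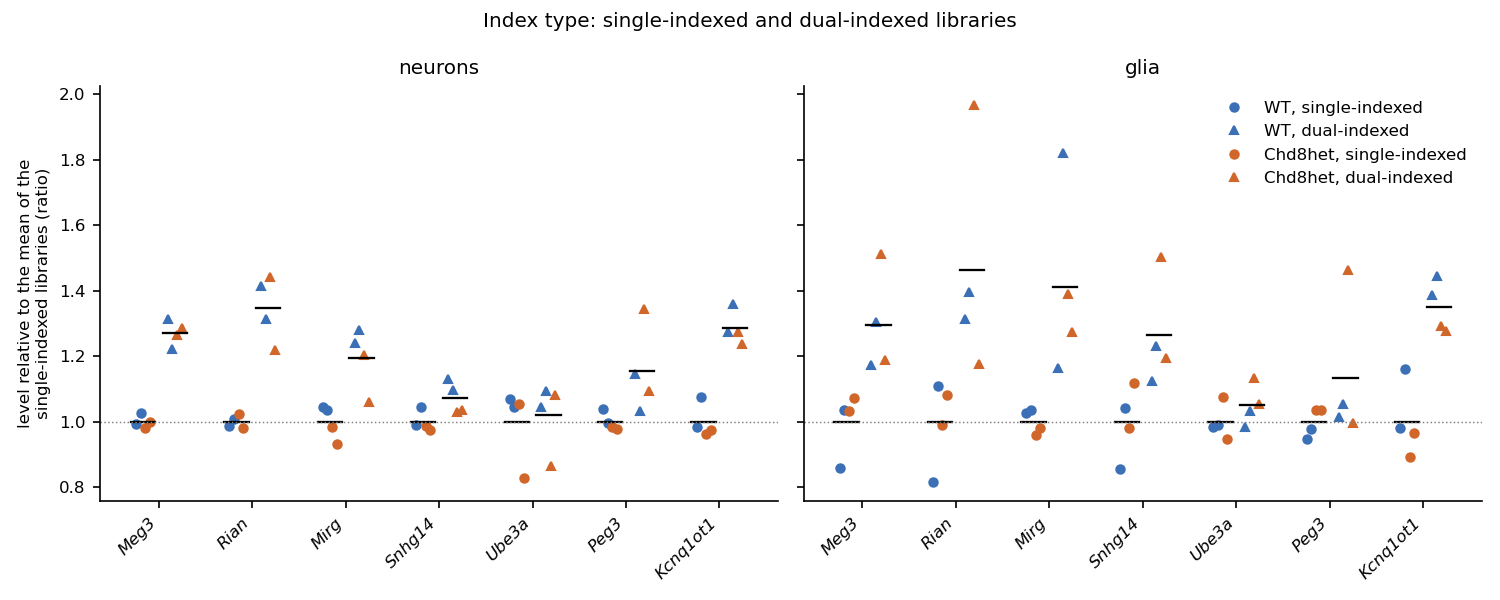
Level of each transcript in single-indexed (circles) and dual-indexed (triangles) libraries, divided by the mean of the 4 single-indexed libraries (y axis, ratio), in neurons (left) and glia (right), with bars at group means and colours for genotype. In neurons the dual-indexed mean is 1.27 times the single-indexed mean for Meg3, 1.35 for Rian, 1.29 for Kcnq1ot1 and 1.02 for Ube3a.

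Other imprinted genes had no common direction between neurons and glia. Of 67 further imprinted genes listed, 66 were in the gene lists and 55 passed the filter on low counts. In neurons 21 (38.2%) were called higher and 25 (45.5%) lower than in glia, against 38.3% and 37.1% of all genes tested, and 9 were not called (edgeR quasi-likelihood test, Benjamini-Hochberg). Their median difference was -0.13 (log2), against 0.02 for all genes tested. Neighbours of the members were among those called higher: Rtl1, a retrotransposon-derived gene of the Meg3 cluster, at 2.16, Snrpn, a splicing-protein gene of the Snhg14 domain, at 2.02, Atp10a, a lipid flippase gene beside Ube3a, at 2.11, Usp29, a deubiquitinase gene beside Peg3, at 2.37 and Kcnq1, named here because Kcnq1ot1 lies inside it, at 1.23 (log2). Reads of Kcnq1 and Kcnq1ot1 may not have been told apart. Apart from Kcnq1, these neighbours were named for the size of their rise, so they do not give the direction of all neighbours. Grb10, an adaptor of growth-factor receptors, differed by 2.55, Rasgrf1, a Ras exchange factor, by 2.17, Kcnk9, a potassium channel gene, by 1.98 and Herc3, a ubiquitin ligase gene, by 1.98.

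The imprinted genes called lower in neurons included others from the same clusters. Dlk1, the protein-coding gene next to Meg3, differed by -3.06, and Cdkn1c, a cell-cycle inhibitor gene of the Kcnq1ot1 domain, by -2.48, both at under 2 CPM in either group. Without Chd8het male 2 the value of Dlk1 was -3.72. Tspan32, of the same domain, differed by -3.83 and Igf2, a growth factor gene, by -2.71 (log2), the latter -1.37 with graph clusters (adjusted p = 0.0028, edgeR). Ddc, an enzyme gene of monoamine synthesis next to Grb10, differed by -4.93, with 0.38 CPM in neurons and 15.7 CPM in glia. The paraoxonase genes Pon3 and Pon2 differed by -3.93 and -3.36, and Slc22a2, an organic cation transporter gene, by -2.23 (log2). With the stricter marker gate Slc22a2 differed by -1.48 (adjusted p = 0.0343, edgeR), and with graph clusters its counts did not pass the filter. Between genotypes, 0 of 619 tests of these genes were called, with 21 at an unadjusted p under 0.05, and 0 of 632 with pairs (edgeR quasi-likelihood test). These tests cover the 10 classes and also the pools of all nuclei, neurons, glia, excitatory and inhibitory neurons, which hold the nuclei of those classes again. For all genes over the 10 classes alone, 2.33% of tests were at an unadjusted p under 0.05.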

How the data were processed

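Nuclei of 8 cortex libraries were measured by 3' single-nucleus RNA sequencing. Per the submitters' processing notes, reads were processed with STAR 2.7.9a (STARsolo) and Cell Ranger against mm10, and the deposited values are raw UMI counts per gene and barcode. Whether counting used strand or introns is not given in the sources used here.

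Barcodes with at least 500 genes and at most 5% mitochondrial UMIs were kept, and doublets predicted by Scrublet in scanpy 1.11.5 (Python 3.11.15) were removed. Each nucleus was placed by its marker genes, none of them a member, and nuclei with no clear lead between the broad types were left out. Neurons with no clear lead between the neuron classes were kept in the sums over neurons but in no class. The 42 graph clusters used as an alternative were made without the members. Counts were summed per library and class. No 2 libraries of a group agreed within sampling noise (chi-square per degree of freedom 67.5 to 139).

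The sums were fitted over all genes with edgeR 4.0.16 in R 4.3.3 (TMM scaling, filterByExpr with a minimum count of 10, quasi-likelihood F test), and p-values were adjusted by Benjamini-Hochberg over all genes tested. Library was a block for comparisons within libraries, sex was a covariate for genotype, and sex and genotype were covariates for index type. DESeq2 1.42.0 was an alternative. Errors on log2 differences are fitted standard errors. Classes next to each other in level were compared by exact sign-flip tests of log2 CPM.

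Animals matched in sex and in number deviated together from their genotype means (r = 0.12 to 0.62, median 0.379, over 52 comparisons of the same libraries in overlapping sets of nuclei). So did animals of the other sex with the same number (r = 0.04 to 0.42, median 0.211), against -0.62 to -0.01 for other numbers. Such animals also share sex and index type, and deviations from a mean balance out, so these values cannot show which animals were litter mates. The numbers were taken as pairs. A number is also an index type, so a difference between numbers cannot be assigned to litter or to index type. The fits were tested on simulated data: of 200 genes drawn at random and changed by 1 log2 unit, 94 were found in L2/3 IT neurons (17028 genes), 119 in OPC (10446 genes), 90 in neurons (20671 genes) and 152 in neurons against glia (21505 genes).

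The text names the 7 members, up to 8 other imprinted genes per direction with the largest change between neurons and glia, and the 3 genes most like each member over classes, of which 1 is not reported here. Members and lists were chosen with earlier results of these data known. MGE-derived against CGE-derived interneurons, index type by class and DESeq2 with pairs were added after seeing the data.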

Additional observations from a re-analysis of the deposited data

Results flagged for a closer look

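The genotype difference of Rian, Chd8het minus WT, had opposite signs in both male and both female pairs. In neurons the male and female means were 0.04 and -0.07 (log2), a gap of 0.11, and in glia they were 0.43 and -0.14, a gap of 0.57. Peg3 in neurons had opposite signs by index type, with means of -0.05 in the single-indexed and 0.16 in the dual-indexed pairs, single minus dual being -0.21 (log2). None of these differences between kinds of pairs was tested, and each mean rests on 2 pairs.

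In 2 groups of 4 libraries, 1 library stood apart from the others. Ube3a in WT glia was at 235 CPM in WT female 2, against 224 to 225 CPM in the other 3. Peg3 in Chd8het glia was at 106 CPM in Chd8het male 2, against 72.0 to 74.8 CPM in the other 3. Chance flags about 1 in 20 such groups, and 28 were checked. The neuron reference genes were at a median of 24.1% of their neuronal level in the glia of Chd8het male 2, the highest of the 8 libraries, and their part in the Peg3 value was not tested.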

How the results depend on the processing

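All 7 members stayed called in neurons against glia in every alternative run, and no member was called between genotypes in any. With the replicate block (pairs), calls between genotypes over all genes and classes went from 0 to 20, and those of the neuron-and-glia term from 0 to 2. The same count over classes was 4 with DESeq2, 58 with DESeq2 and the replicate block, 7 with index type as covariate, 34 without the filter on low counts and 2 with the stricter nucleus filter, and 0 to 2 when each library was left out. The causes were not tested.

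Index type called 5 members in all nuclei, 4 to 5 without each library, but 3 in each of MGE-derived interneurons (10.9% of genes called higher in dual-indexed libraries), oligodendrocytes (5.67%) and microglia (5.01%) and 0 in vascular cells (0.6%), and genes called ran from 4592 to 8110 without each library. Mean r of Meg3 and Rian was 0.32 without thinning and 0.25 with thinning to 6000 UMIs.

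Apart from the Snhg14 step from astrocytes to oligodendrocytes (-0.028 with doublets kept), directions that turned were of values not called. The neuron-and-glia term of Mirg was 0.019 with graph clusters and 0.020 with the stricter marker gate, and index type of Ube3a was -0.0079 with the stricter nucleus filter. Leaving out each library gave -0.19 to 0.050 for that term of Mirg and -0.078 to 0.099 for index type of Ube3a. Between genotypes it gave, in neurons, -0.12 to 0.051 for Meg3, -0.15 to 0.045 for Rian and -0.058 to 0.099 for Peg3, and in glia -0.039 to 0.23 for Meg3, -0.15 to 0.28 for Rian, -0.30 to 0.10 for Mirg and -0.0089 to 0.25 for Snhg14 (log2). Depth limits Mirg and Peg3 most, at 0.088 and 0.216 UMIs per glial nucleus.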
